A study of Mus musculus with 4 samples.

Results

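The genes described here encode proteins that sit on the surface of lipid droplets in mouse liver. They are the CIDE proteins Cidea, Cideb and Cidec, the perilipins Plin2, Plin3, Plin4 and Plin5, the triglyceride lipase Pnpla2, its inhibitor G0s2 and the droplet enzyme Hsd17b13. They were chosen by name, as every non-control probe whose gene name on the array equals 1 of these symbols. This gave 10 genes and 13 probes, of 34761 genes and 55681 non-control probes on the array. Cideb, Cidec and Hsd17b13 had 2 probes each, and the other 7 genes had 1.

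Liver RNA came from male C57BL/6 mice at 0, 5, 10 and 15 weeks of feeding with a high-fat, high-sucrose (HFHS) diet. Feeding began at 5 weeks of age, which makes the animals 5, 10, 15 and 20 weeks old at the 4 times. According to the series text each time had 4 mice, but it has 1 array, and whether RNA of several mice was pooled on it is not stated. The labels name no genetic change. Age and time on the diet cannot be told apart, since livers of age-matched mice on standard food are not analysed here. With 1 array per time no difference has a replicate check, no test was made, and precision is limited by how few arrays there are.

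Liver cells store triglyceride in droplets whose surface is covered by perilipins. These proteins govern which lipases reach the stored fat. CIDE proteins gather where droplets touch and pass lipid from the smaller droplet to the larger, which yields the large droplets seen in fat cells and in fatty liver. Pnpla2, also called ATGL, starts the breakdown of stored triglyceride, G0s2 blocks it, and Hsd17b13 is a droplet-bound enzyme found chiefly in hepatocytes.

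Over 15 weeks Cidea, Cidec and Plin4 rose, G0s2 was higher at 5 and 10 weeks but not at 15 weeks, and Plin2, Plin3, Plin5, Cideb, Pnpla2 and Hsd17b13 stayed within 2-fold in every comparison as scaled here. Plin3 passed 2-fold at 15 weeks against 0 weeks under 1 alternative, spike-in scaling. Cidea was not above background at 0 weeks and had the largest rise of the group, 23.7-fold at 15 weeks against 10 weeks. Plin4 was 5.43-fold higher at 15 weeks than at 0 weeks. Cidec was 2.26-fold higher at 5 weeks and 2.50-fold higher at 15 weeks than at 0 weeks, and lay below both neighbouring times at 10 weeks.

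Levels are given as scaled signal, the processed fluorescence of a probe as a multiple of the 75th percentile of its array. A level of 1 probe can be set against the same probe at other times and not against another probe. A gene with its probe well above background on both arrays counted as measured, and a difference of at least 2-fold (1 on the log2 scale) counted as higher or lower. The arrays had between 44.49% and 48.3% of spots well above background, no saturated spot and 75th percentiles between 193.7 and 271.6. The median over repeated probes of the SD between spots was 0.0634 to 0.0733 (log2), which covers the error within an array and not that between mice. After scaling, the median measured gene stood at −0.02 at 5 weeks, −0.01 at 10 weeks and −0.25 at 15 weeks against 0 weeks, and at −0.24 at 15 weeks against 10 weeks (log2). For the members, the main differences that involve 15 weeks are therefore also given relative to the median gene. Folds of other genes at 15 weeks are as scaled unless stated. In whole liver, a lower signal from fewer cells of a type and from less RNA per cell cannot be told apart.

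**Figure D1:**
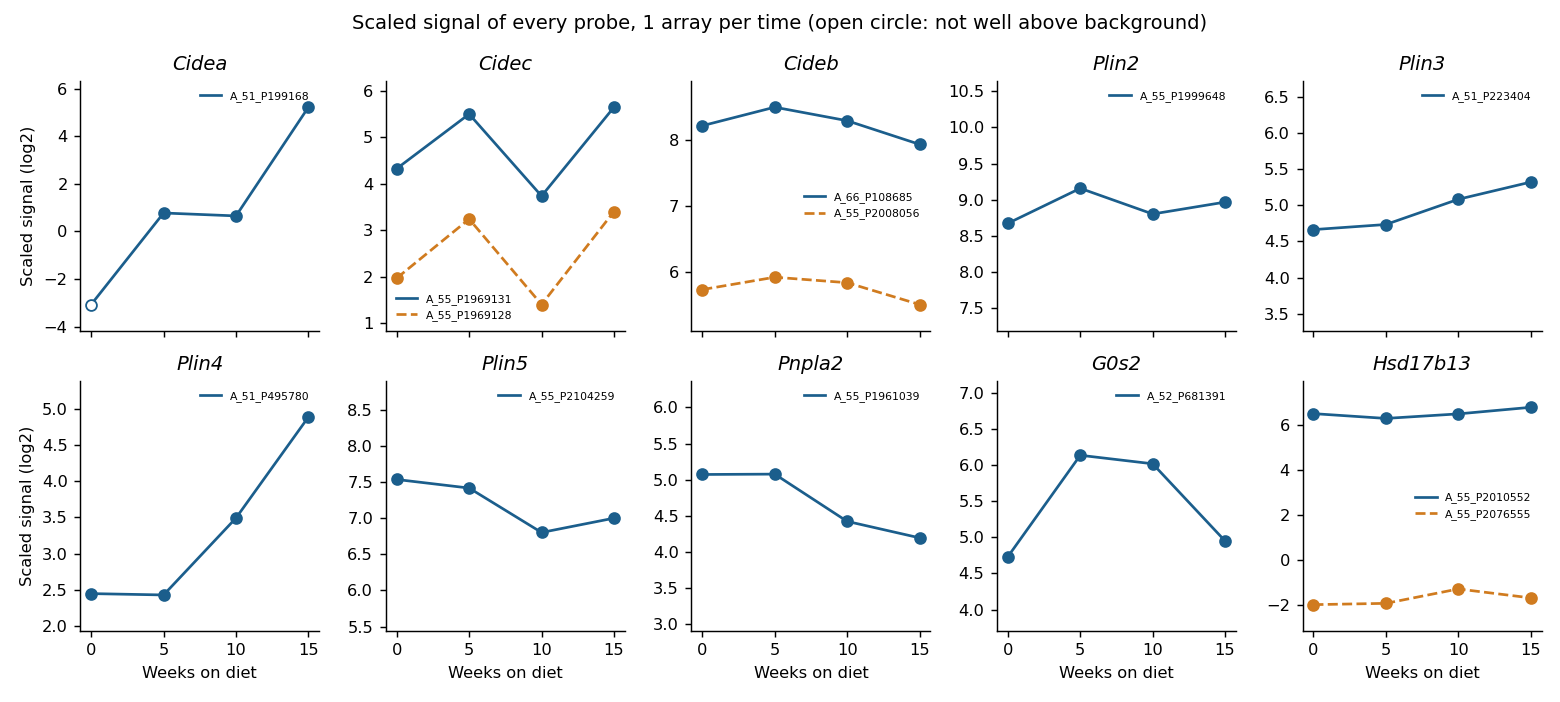
Scaled signal (log2) of all 13 probes of the 10 genes against weeks on the HFHS diet, 1 array per time, 1 panel per gene, with its own axis range of at least 3 log2 units. The open circle is the 0-week value of Cidea, which was not well above background. Cidea and Plin4 end highest at 15 weeks, both Cidec probes dip at 10 weeks, and G0s2 is high at 5 and 10 weeks.

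Cidec, also known as Fsp27, is the CIDE protein of white fat cells and is induced in fatty liver, where it promotes droplet growth. It lies on the minus strand of chromosome 6 and had 2 probes (build mm9), at chr6:113374630-113374689, which starts at base 1642 of the transcript, and at chr6:113378116-113378175, which starts at base 552. The first 30 bases of each 60-base probe are shown because the course of Cidec over time rests on 2 separate sequences of the transcript.
Cidec probe at base 1642: tttttccacgaatgagtgaatggtattaga
Cidec probe at base 552: tctatgacacatactcgctttcctatgacc

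The probe at base 1642 had scaled signals of 20.1, 45.4, 13.3 and 50.3 at 0, 5, 10 and 15 weeks. The probe at base 552 was dimmer throughout, with 3.92, 9.46, 2.64 and 10.6. Both probes were high at 5 and 15 weeks and lowest at 10 weeks. Cidec was 2.26-fold higher at 5 weeks than at 0 weeks (log2 difference 1.17), and 2.42-fold higher by the other probe. At 10 weeks it was 3.40-fold lower than at 5 weeks (log2 −1.77), and 3.58-fold lower by the other probe. At that step 0.251% of measured genes had a more negative difference. Against 0 weeks the 10-week level differed by less than 2-fold (log2 −0.59).

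Cidec at 15 weeks was 3.77-fold higher than at 10 weeks (log2 1.91, or 2.16 relative to the median gene), and 4.01-fold higher by the other probe. Against 0 weeks it was 2.50-fold higher (log2 1.32, or 1.57 relative to the median gene), and 2.70-fold higher by the other probe. Against 5 weeks it differed by 0.15 (log2), or 0.36 relative to the median gene, and by 0.16 or 0.38 by the other probe. Over the processing alternatives its difference from 0 weeks spanned 1.32 to 1.83 at 15 weeks and 1.11 to 1.22 at 5 weeks. How near the levels at 5 and 15 weeks lie thus depends on the scaling. On the 15-week array the spot of the brighter probe had 5 of 44 bright neighbours, spots over 1 (log2) above their own median over the arrays. The other probe, with the same course, had 0.

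The 250 bases before the outermost start of Cidec (RefSeq, build GRCm38.p6, chr6:113435761-113436010, minus strand, 5′ to 3′) are shown because Cidec and Plin4 are the members with the largest measured differences from 0 weeks at 15 weeks. The motifs searched, on both strands, were AGGTCA, a half-site of nuclear receptors such as the PPARs, a direct repeat of AGGTCA with 1 base between the copies (which contains the half-site), the E-box CACGTG, the CCAAT box, the TATA box (TATAAA) and the GC box (GGGCGG). None of these letters was found in this window or in that before the second Cidec start.
Cidec promoter: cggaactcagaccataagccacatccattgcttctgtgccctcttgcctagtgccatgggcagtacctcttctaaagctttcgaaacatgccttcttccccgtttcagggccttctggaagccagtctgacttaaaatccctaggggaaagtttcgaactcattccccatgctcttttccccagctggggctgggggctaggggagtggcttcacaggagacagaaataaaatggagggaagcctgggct

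Cideb is the CIDE protein of normal hepatocytes, where it takes part in loading lipid onto very-low-density lipoprotein. It lies on the minus strand of chromosome 14, and its probes (build mm9) are at chr14:56372942-56373001, base 1063 of the transcript, and chr14:56373658-56373717, base 486. The first 30 bases of both are shown as the pair behind its flat course.
Cideb probe at base 1063: ggtttttactgacgcctacccctaagatcc
Cideb probe at base 486: ctaggacgggagaagccaaaacacagcaag

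The brighter Cideb probe had scaled signals of 296, 359, 312 and 244 at 0, 5, 10 and 15 weeks. The other had 53.5, 60.9, 57.5 and 45.8. As scaled, both were highest at 5 weeks and lowest at 15 weeks, within a narrow range. The difference from 0 weeks was 0.28 (log2) at 5 weeks for the brighter probe, where the other gave 0.19. At 15 weeks the difference from 0 weeks was −0.28, which is −0.03 relative to the median gene, with −0.23 for the other probe.

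Cidea is the CIDE protein of brown fat cells and is known to appear in the hepatocytes of obese mice. Its single probe starts at base 1066 of the transcript. The scaled signal was 0.119 at 0 weeks, where the spot was not well above background, and 1.71, 1.57 and 37.3 at 5, 10 and 15 weeks. The gene thus passed background by 5 weeks, stood level at 10 weeks and was far brighter at 15 weeks. Against 0 weeks Cidea was at least 14.4-fold higher at 5 weeks, at least 13.2-fold higher at 10 weeks and at least 312-fold higher at 15 weeks. Each bound divides the later signal by the larger of the dim signal itself and the lowest signal well above background on the 0-week array (0.0833).

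Between 5 and 10 weeks Cidea changed little (log2 −0.12 at 10 weeks against 5 weeks). At 15 weeks it was 23.7-fold higher than at 10 weeks (log2 4.57, or 4.81 relative to the median gene), and 2 of 17490 measured genes rose more. Against 5 weeks it was 21.8-fold higher, and 9 of 17422 genes rose more. At 15 weeks 2 of the 44 neighbouring spots were bright. The 3 CIDE genes therefore followed 3 different courses, with Cidec high at 5 and 15 weeks, Cidea highest at 15 weeks and Cideb within 2-fold throughout.

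Plin2, formerly called ADRP, is the main droplet coat protein of hepatocytes and is held stable by the lipid it binds. Its probe (build mm9, chr4:86302847-86302906, minus strand, base 1449) had scaled signals of 408, 571, 447 and 500.5 at 0, 5, 10 and 15 weeks. As scaled it was highest at 5 weeks, and it stayed within 2-fold of 0 weeks at every later time. The difference from 0 weeks was 0.48 (log2, 1.40-fold) at 5 weeks, 0.13 at 10 weeks and 0.29 at 15 weeks. The order of 5 and 15 weeks depends on the scaling: relative to the median gene the differences were 0.50 at 5 weeks and 0.54 at 15 weeks, and with quantile normalization they were 0.49 and 0.93. Its promoter is shown because it is 1 of 3 members whose window held the nuclear receptor half-site. The window is chr4:86670060-86670309 (GRCm38.p6, minus strand), and the capitals mark the half-site, read on the opposite strand, and a CCAAT box.
Plin2 promoter: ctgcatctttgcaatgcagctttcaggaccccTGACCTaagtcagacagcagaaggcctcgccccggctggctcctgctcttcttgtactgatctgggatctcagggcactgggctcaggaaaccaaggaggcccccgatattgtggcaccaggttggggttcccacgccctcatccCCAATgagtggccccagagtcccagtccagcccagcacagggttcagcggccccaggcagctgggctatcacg

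The half-site began 218 bases before the start of Plin2, and it was also found before Hsd17b13 (96 bases) and Plin5 (170 bases), and in 14% of 32851 RefSeq promoter windows of the same length. CCAAT was found in 33.8% of windows, GGGCGG in 32.7%, TATAAA in 12.4%, CACGTG in 6.02% and the direct repeat in 0.0335%. No window of the 9 members with a promoter sequence held CACGTG or the direct repeat.

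Plin3, also called TIP47, is a perilipin found in most cell types that moves onto new droplets from the cytosol. Its probe (chr17:56418429-56418488, mm9, minus strand, base 2055) had scaled signals of 25.3, 26.6, 33.9 and 39.9 at 0, 5, 10 and 15 weeks. The values were in ascending order of time without any 2-fold difference. At 15 weeks Plin3 differed from 0 weeks by 0.66 (log2, 1.58-fold), or 0.91 relative to the median gene, and by 1.16 with spike-in scaling, which is past 2-fold.

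Plin4, also called S3-12, is abundant in white fat cells and coats nascent droplets. Its probe lies at chr17:56240055-56240114 (mm9, minus strand) and starts at base 5654 of a long transcript. Plin4 had scaled signals of 5.46, 5.39, 11.3 and 29.6 at 0, 5, 10 and 15 weeks. It was unmoved at 5 weeks and brighter at each later time. At 10 weeks it was 2.06-fold higher than at 0 weeks (log2 1.05) and 2.09-fold higher than at 5 weeks (log2 1.06). At 15 weeks it was 5.43-fold higher than at 0 weeks (log2 2.44, or 2.69 relative to the median gene), and 86 of 17562 measured genes rose more. The last step alone was 2.63-fold at 15 weeks against 10 weeks (log2 1.40, or 1.64 relative to the median gene). The 10-week differences lay near the threshold: with other scalings and background corrections the difference from 0 weeks spanned 0.94 to 1.05 (log2), and that from 5 weeks spanned 0.94 to 1.06.

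The 250 bases before the start of Plin4 (GRCm38.p6, chr17:56109783-56110032, minus strand) are shown beside those of Cidec because both genes rose by 15 weeks. The capitals mark a CCAAT box on the opposite strand, 18 bases before the start, the only motif of those searched that was found there.
Plin4 promoter: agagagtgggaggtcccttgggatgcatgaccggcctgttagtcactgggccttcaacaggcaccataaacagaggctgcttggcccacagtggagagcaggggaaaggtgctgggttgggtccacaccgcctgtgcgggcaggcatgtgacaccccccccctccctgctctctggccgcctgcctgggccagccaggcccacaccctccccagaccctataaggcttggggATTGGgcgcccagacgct

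Plin5, which tethers droplets to mitochondria in tissues that burn fat and restrains Pnpla2, was the perilipin with lower values. Its probe (chr17:56251025-56251084, mm9, minus strand, base 1931) had scaled signals of 185, 171, 112 and 128 at 0, 5, 10 and 15 weeks. As scaled, the 10- and 15-week values lay below the others, by less than 2-fold. Against 0 weeks the difference was −0.73 (log2, 1.66-fold lower) at 10 weeks and −0.53 at 15 weeks, the second being −0.28 relative to the median gene. Over the processing alternatives the 15-week difference spanned −0.53 to −0.02, so its size depends on the scaling. Plin3, Plin4 and Plin5 thus had values in opposite directions at 10 weeks against 0 weeks, of which only that of Plin4 reached 2-fold.

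G0s2 binds Pnpla2 and blocks triglyceride breakdown. Its probe (chr1:195098925-195098984, mm9, minus strand) starts at base 212 of the transcript. G0s2 had scaled signals of 26.6, 70.2, 64.7 and 30.9 at 0, 5, 10 and 15 weeks. It was high at 5 and 10 weeks and within 2-fold of its 0-week level at 15 weeks. Against 0 weeks G0s2 was 2.64-fold higher at 5 weeks (log2 1.40), where 152 of 17095 measured genes rose more, and 2.44-fold higher at 10 weeks (log2 1.28). At 15 weeks the difference from 0 weeks was 0.22 (log2), or 0.47 relative to the median gene. Over the processing alternatives it spanned 0.22 to 0.72, so how near it came to the 0-week level depends on the scaling. At 15 weeks against 10 weeks it was 2.10-fold lower (log2 −1.07), which is −0.83 relative to the median gene and so less than 2-fold on that scale. On the 10-week array the G0s2 spot had 6 of 44 bright neighbours, and their part in the 10-week value was not tested. The 5-week spot had 1.

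The window before G0s2 is shown as that of the member whose course was opposite to Cidea and Plin4 over the last step (GRCm38.p6, chr1:193273189-193273438, minus strand). The capitals mark GGGCGG on the opposite strand, 18 bases before the start.
G0s2 promoter: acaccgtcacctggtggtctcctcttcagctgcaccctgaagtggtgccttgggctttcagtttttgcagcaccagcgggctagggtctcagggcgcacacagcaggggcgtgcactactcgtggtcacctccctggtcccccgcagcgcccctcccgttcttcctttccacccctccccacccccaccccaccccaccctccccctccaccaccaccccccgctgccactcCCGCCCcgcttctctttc

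Pnpla2, the lipase that G0s2 and the perilipins hold back, had scaled signals of 33.7, 33.8, 21.5 and 18.3 at 0, 5, 10 and 15 weeks (chr7:148645928-148645987, mm9, plus strand, base 1920). The 2 later values lay below the 2 earlier ones without reaching 2-fold. Against 0 weeks the difference was 0.00 (log2) at 5 weeks, −0.65 at 10 weeks (1.57-fold lower) and −0.88 at 15 weeks (1.84-fold lower). Relative to the median gene the 15-week difference was −0.63. At 5 weeks, when G0s2 was 2.64-fold higher, the signal of its target Pnpla2 was level.

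Hsd17b13, a droplet enzyme of the short-chain dehydrogenase family, had 2 probes on chromosome 5 (mm9, minus strand) made from 2 transcript records. They lie at chr5:104392792-104392851 (base 916) and chr5:104384701-104384760 (base 1430), and their first 30 bases are shown because the pair did not have the same course.
Hsd17b13 probe at base 916: agtcgtatacagaacattcaatttgaagca
Hsd17b13 probe at base 1430: tacccatgccttggtatatgagtatctgtg

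The probe at base 916 had scaled signals of 89.5, 77.2, 88.8 and 108.6 at 0, 5, 10 and 15 weeks. The probe at base 1430 was dim, with 0.252, 0.262, 0.408 and 0.310, but well above background on all 4 arrays. The first was highest at 15 weeks and the second at 10 weeks. At 15 weeks the difference from 0 weeks was 0.28 (log2, 0.53 relative to the median gene) for the first probe and 0.30 for the second. At 10 weeks it was −0.01 for the first and 0.70 for the second, whose spot had 6 of 44 bright neighbours on that array.

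At 5 weeks against 0 weeks, 2 of the 9 measured members were at least 2-fold higher, Cidec and G0s2, beside 2.3% of all 17095 measured genes, and 0 of 9 were lower, beside 1.57%. At 10 weeks against 0 weeks the 2 higher members of 9 were Plin4 and G0s2, beside 2.92% of all genes, and 0 were lower, beside 1.53%. At 15 weeks against 0 weeks 2 of 9 were higher, Cidec and Plin4, beside 5.76%, and 0 were lower, beside 5.03%. Cidea is outside these counts because it was below background at 0 weeks, and its bounds were above 2-fold at each time. The pair that was higher differed at each time, so no member measured at 0 weeks was higher at all 3 later times.

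Between neighbouring times all 10 members were measured. At 10 weeks against 5 weeks 1 was higher, Plin4, beside 0.953% of genes, and 1 was lower, Cidec, beside 1.13%. At 15 weeks against 10 weeks 3 were higher, Cidea, Cidec and Plin4, beside 3.95%, and 1 was lower, G0s2, beside 4.06%. Of the 5 comparisons, this last step held the most measured members past 2-fold, with Cidea counted here but not against 0 weeks. Among the 7 coat and CIDE genes the median difference over that step was 0.24 (log2), or 0.48 relative to the median gene.

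**Figure D2:**
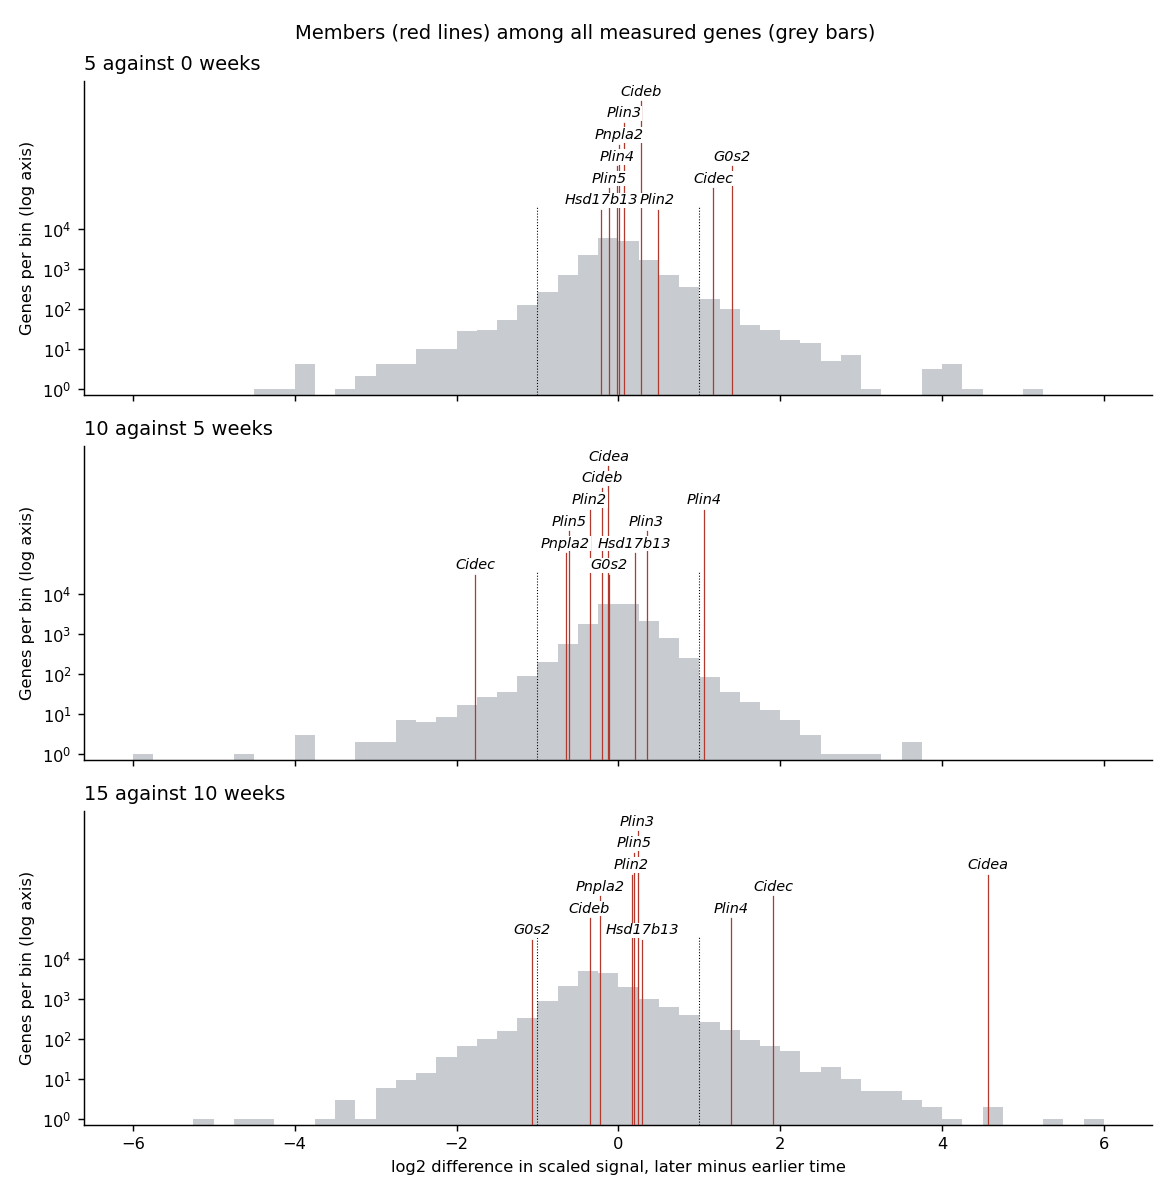
Histograms of the log2 difference of all measured genes (grey, log axis of gene counts, later minus earlier time) with the members marked by red lines, for 5 against 0, 10 against 5 and 15 against 10 weeks. Dotted lines mark 2-fold. Cidec and G0s2 lie past the upper line at 5 weeks, Cidec is past the lower and Plin4 just past the upper line at 10 weeks, and Cidea, Cidec and Plin4 lie past the upper line at 15 weeks. Cidea has no line in the top panel because it was below background at 0 weeks.

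A list of 28 other droplet genes, all on the array, was read beside the members. Of 26 measured at 5 weeks against 0 weeks, 3 were at least 2-fold higher, beside 2.3% of all genes, and 0 lower, beside 1.57%. The median of the list lay 0.12 above that of all genes (log2). At 10 weeks 1 of 25 was higher, beside 2.92%, and 0 lower, beside 1.53% (relative median −0.03). At 15 weeks 2 of 26 were higher, beside 5.76%, and 0 lower, beside 5.03% (relative median 0.02). Fitm1, an endoplasmic reticulum protein that promotes fat storage, had 3.95, 9.84, 12.3 and 13.2 at 0, 5, 10 and 15 weeks and was 2.49-, 3.12- and 3.34-fold higher at the 3 later times. It was the 1 gene of this list that was higher at all 3 times.

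Hilpda, which like G0s2 inhibits Pnpla2, had scaled signals of 1.55, 3.13, 2.08 and 4.21 at 0, 5, 10 and 15 weeks. It was 2.02-fold higher at 5 weeks and 2.72-fold higher at 15 weeks than at 0 weeks, and lower at 10 weeks than at 5 and 15 weeks. Its 10-week level lay above that at 0 weeks (log2 0.42), whereas that of Cidec lay below (log2 −0.59). At 15 weeks against 10 weeks Hilpda was 2.03-fold higher, and its second probe gave 0.95 (log2), just short of 2-fold. The third higher gene at 5 weeks was Ldaf1, a partner of seipin in droplet assembly, with 0.514, 9.67, 0.423 and 0.622. Its spot had 21 of 44 bright neighbours on the 5-week array, and the part of these in its value was not tested. It is also the 1 gene of 25 that was lower at 10 weeks against 5 weeks.

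Plin1, the perilipin of fat cells, was above background only at 5 weeks, with a scaled signal of 0.162, at least 1.94-fold higher than at 0 weeks. Abhd5, the activator of Pnpla2, had 3.32, 3.53, 3.18 and 3.04. Hormone-sensitive lipase, Lipe, had 0.603, 0.588, 0.685 and 0.419, and monoglyceride lipase, Mgll, had 145, 161, 137.5 and 110. The lipases and the activator downstream of or beside Pnpla2 thus stayed within 2-fold. Of the enzymes that make the stored triglyceride, Dgat1 had 11.6, 9.25, 7.96 and 6.29 and Dgat2 had 272.6, 297, 340 and 264, also within 2-fold.

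Among 12 transcription regulators known to act on droplet genes, 0 of 12 measured were at least 2-fold different at 5 weeks against 0 weeks. Of all genes 2.3% were higher and 1.57% lower at that time. At 10 weeks 1 of 11 was higher, beside 2.92% of all genes, and at 15 weeks 2 of 11, beside 5.76%. At these times 0 were lower, beside 1.53% and 5.03%. Pparg, the nuclear receptor that drives Cidea, Cidec and Plin4 in fat cells, had scaled signals of 5.90, 5.14, 6.74 and 13.9 at 0, 5, 10 and 15 weeks. It was level at 5 and 10 weeks and 2.35-fold higher at 15 weeks than at 0 weeks, and 2.06-fold higher than at 10 weeks. Srebf1, a regulator of fatty acid synthesis, had 0.690, 1.03, 1.71 and 1.89, and was 2.48-fold higher at 10 weeks and 2.74-fold higher at 15 weeks than at 0 weeks. Ppara, the receptor that responds to fatty acids in hepatocytes, had 96.2, 142, 139 and 91.4, within 2-fold. Ppargc1b, a coactivator, was not above background at 10 and 15 weeks, where it was at least 1.58- and at least 2.28-fold lower than at 0 weeks.

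Because Cidec, Cidea and Plin4 are also genes of fat cells, markers of fat cells were read beside them. Of 9 adipocyte markers, 4, 7, 3 and 4 were above background at 0, 5, 10 and 15 weeks. The summed scaled signal of all 9 was 6.97, 30.5, 26.0 and 29.8. Most of each sum came from Cfd and Fabp4, so it does not describe the other markers. Cfd, the protease adipsin, had 0.978, 18.1, 20.2 and 14.4. Fabp4, a fatty acid carrier also made by macrophages, had 5.03, 10.6, 4.88 and 14.7. Among the markers measured at both times, these were the ones that reached 2-fold against 0 weeks. Adipoq, the fat cell hormone adiponectin, was above background only at 5 weeks, at 0.510, at least 5.18-fold higher than at 0 weeks. Retn, the hormone resistin, was also above background only at 5 weeks, at 0.338, at least 3.80-fold higher than at 0 weeks, as was Plin1. Adig, a fat cell gene, was dim, with 0.102, 0.198, 0.0480 and 0.0993 for its brighter probe. That probe was above background at 0, 5 and 15 weeks but not at 10 weeks, and the other Adig probe was not at any time. Lep and Slc7a10 were not above background at any time. At 5 weeks, when Cidec and G0s2 were higher, Adipoq, Retn, Plin1, Adig, Cfd, Fabp4 and Lipe were above background, and their part in those results was not tested. At 15 weeks, when Cidea, Cidec and Plin4 were highest, Cfd, Fabp4, Lipe and Adig were above background and Adipoq, Retn, Plin1, Lep and Slc7a10 were not. The part of fat cells in the 15-week values was not tested.

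Fabp4 had the same order of levels as Cidec. It was 2.10-fold higher at 5 weeks than at 0 weeks, 2.17-fold lower at 10 weeks than at 5 weeks, and 3.01-fold higher at 15 weeks than at 10 weeks. Of the brown fat markers, Ucp1 and Dio2 were not above background on any array, Cox8b reached 0.219, 0.103 and 0.200 at 5, 10 and 15 weeks, and Cox7a1 had 8.69, 3.92, 5.71 and 6.38. Cox8b was at least 2.40-fold higher at 15 weeks than at 0 weeks, where it was not above background. The part of brown fat cells in the Cidea values was not tested.

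**Figure D3:**
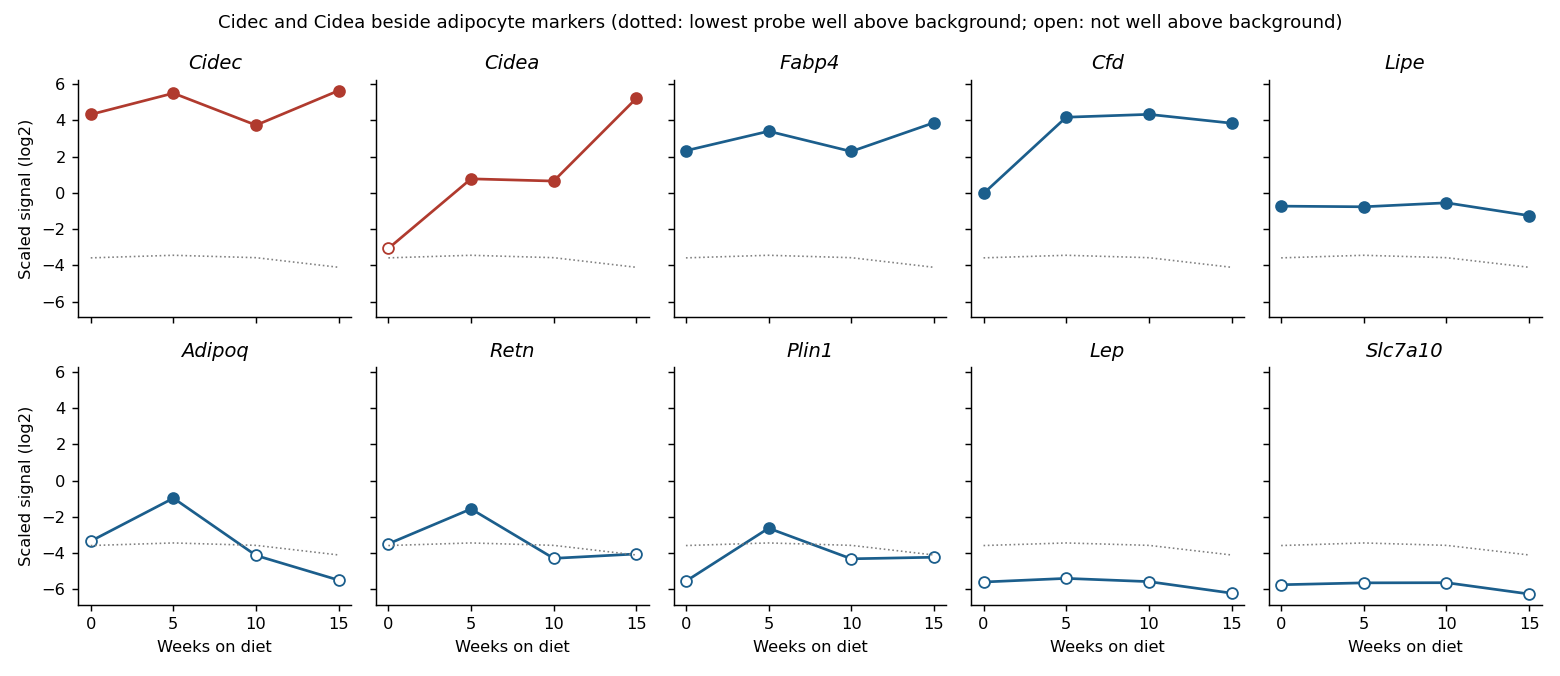
Scaled signal (log2) of Cidec and Cidea (red) and of 8 of the 9 adipocyte markers (blue) at 0, 5, 10 and 15 weeks, 1 array per time, with open circles for spots not well above background and a dotted line at the lowest probe well above background. Fabp4 follows the course of Cidec, and Adipoq, Retn and Plin1 stand above background only at 5 weeks. Lep and Slc7a10 have open circles at all times.

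Markers of hepatocytes, macrophages, stellate cells and skeletal muscle were read over the same times. All 12 hepatocyte markers, which check the tissue label, were above background on every array. Their summed scaled signal was 12930, 11360, 12510 and 8211 at 0, 5, 10 and 15 weeks. At 15 weeks against 0 weeks 0 of 12 were higher, beside 5.76% of all genes, and 2 lower, beside 5.03%. Their median at that time was −0.35 relative to all genes. The sum of 12 macrophage markers was 138, 249, 312 and 352. Of 11 measured, 4, 9 and 7 were at least 2-fold higher at 5, 10 and 15 weeks than at 0 weeks. The shares of all genes were 2.3%, 2.92% and 5.76%. At 15 weeks against 10 weeks, the step at which Cidea, Cidec and Plin4 rose, the macrophage markers were mixed. Of 11 measured, 4 were at least 2-fold higher, beside 3.95% of all genes, and 7 were within 2-fold. Trem2, a marker of macrophages that take up lipid, was 7.48-fold higher over that step. Gpnmb, outside these 11 because it was not above background at 10 weeks, was at least 25.9-fold higher at 15 weeks. Timd4 (1.90-fold), Clec4f (1.41-fold) and Vsig4 (1.21-fold) were lower as scaled. Relative to the median gene they stood at −0.68, −0.26 and −0.03 (log2), so Vsig4 was level with it. Of 11 stellate cell markers, 5 were at least 2-fold higher over that step, beside 3.95% of all genes. At 10 weeks against 5 weeks, the step at which Cidec fell, 0 of the 11 were higher, beside 0.953%, and 3 lower, beside 1.13%. These were the contractile gene Acta2 (8.67-fold lower) and the collagens Col1a1 (2.24-fold lower) and Col1a2 (2.08-fold lower). At 10 weeks against 0 weeks 4 of the 11 stellate cell markers were lower, beside 1.53% of all genes. At 15 weeks against 0 weeks 4 were higher, beside 5.76%, and 1 lower, beside 5.03%. Of 5 skeletal muscle markers, 1 was above background on any array, Ckm at 10 weeks, where its spot had 10 of 44 bright neighbours. The part of cell composition in the values of the droplet genes was not tested.

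Genes with the most similar course were sought for the members at least 2-fold different from 0 weeks, by Euclidean distance over the 3 log2 differences from 0 weeks, among 16683 genes above background on all 4 arrays. For Cidec they were Dpt, Clip3 and Plet1, at distances of 0.30, 0.31 and 0.37. Dpt had log2 differences from 0 weeks of 1.10, −0.64 and 1.60 at 5, 10 and 15 weeks. For Plin4 they were Chil3, Dusp2 and Ccnb2, at distances of 0.25, 0.28 and 0.37. For G0s2 they were a transcript without a symbol, Nr1d1 and Gm2788, at 0.13, 0.19 and 0.19. Nr1d1, a repressor of the circadian clock also called Rev-erb alpha, had log2 differences of 1.58, 1.30 and 0.28. These likenesses rest on 3 differences from 1 shared array and describe these arrays alone.

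Members past 2-fold were followed over the alternative scalings, background corrections and filters. All 12 such differences kept their sign, and 9 stayed past 2-fold in every alternative that gave a value. The rise at 15 weeks against 10 weeks spanned 4.36 to 5.16 (log2) for Cidea, 1.91 to 2.51 for Cidec and 1.40 to 1.99 for Plin4. The differences that lost 2-fold in some alternative were those of Plin4 at 10 weeks against 0 and 5 weeks and that of G0s2 at 15 weeks against 10 weeks, which spanned −1.07 to −0.48 (log2).

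**Figure D4:**
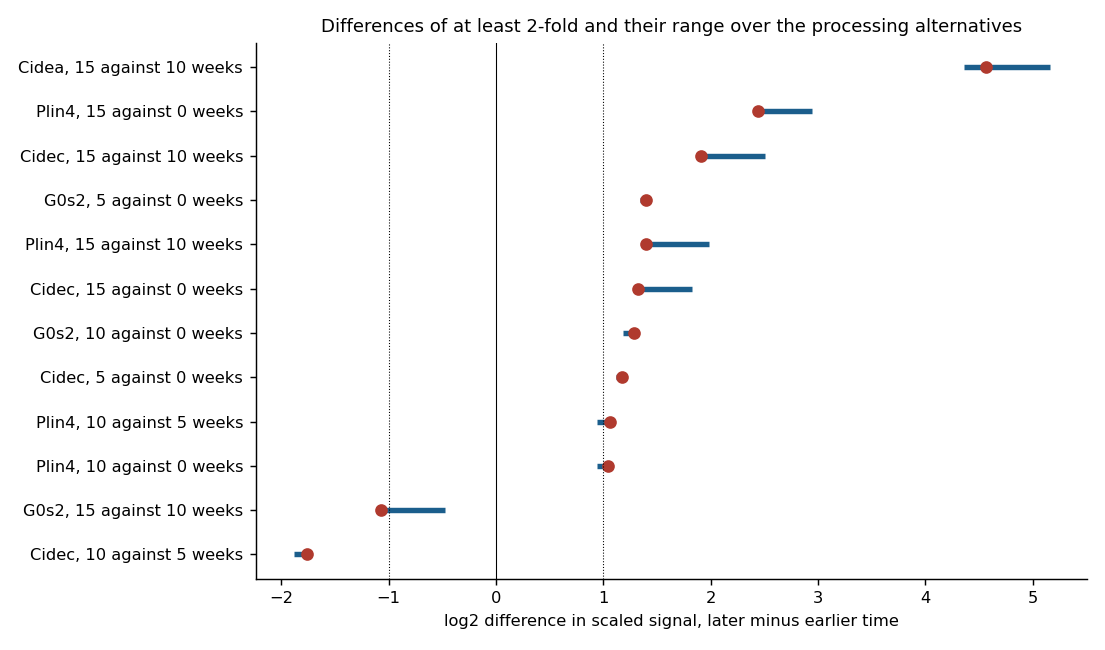
Log2 difference (later minus earlier time) of the 12 member differences of at least 2-fold, with the value as reported as a red point and the range over the processing alternatives as a blue line. Dotted lines mark 2-fold. The range of G0s2 at 15 against 10 weeks reaches −0.48, inside the lines, and that of Cidea at 15 against 10 weeks runs from 4.36 to 5.16.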

How the data were processed

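Liver RNA of mice at 0, 5, 10 and 15 weeks of the HFHS diet was labelled with Cy3 and read on 1-colour Agilent arrays. Per the file headers, Agilent Feature Extraction version 10.7.3.1 gave a processed signal per spot, an intensity on a linear scale with background subtracted. The value table deposited by the authors holds intensity too, and equals the processed signal divided by 1 constant per array, its median, so that its column median is 1. The 4 scans carry the same scan time, per the file headers.

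Each processed signal was divided by the 75th percentile of its array and put on the log2 scale. Control spots and spots marked as outliers were dropped, and repeated spots averaged. A gene with several probes was counted by the one brightest on average. Names came from the RefSeq table of GRCm38.p6 (27509 probes by accession, 3549 by symbol, 404 by older symbol, 24219 with the file's name kept), and probe positions from the scanner files (mm9). All 10 members were named with every probe. Other listed genes were named where at least 2-fold different, or otherwise with values only, and likeness was given for the 3 nearest genes. A bright neighbour is a spot among the 44 nearest that lies over 1 (log2) above its own median over the arrays. The members and the lists were chosen with earlier results of these data known. The calculations were tested on simulated data.

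Alternatives were the array median, the 75th percentile of detected probes, quantile normalization, spike-in scaling, normexp (offset 50) on the raw intensity, the deposited table, the mean of a gene's probes, no background filter, outlier spots kept, spots with 5 or more bright neighbours left out and a 1.5-fold threshold. Python 3.11.15 with numpy 2.4.6 and pandas 2.3.3, and R 4.3.3 with limma 3.58.1, were used. Protein sequences were not used here.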

Additional observations from a re-analysis of the deposited data

How the results depend on the processing

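Of the counts of members past 2-fold, these moved. The 2 members higher at 10 weeks against 0 weeks became 1 with the array median, spike-in scaling, normexp and spots with bright neighbours left out. The 2 higher at 15 weeks against 0 weeks became 1 with such spots left out, since that removes the brighter Cidec probe at 15 weeks as it does G0s2 at 10 weeks. The 1 higher at 10 weeks against 5 weeks became 0 with spike-in scaling. The 1 lower at 15 weeks against 10 weeks became 0 with the array median, the percentile of detected probes, quantile normalization, spike-in scaling, normexp and such spots left out. With a 1.5-fold threshold, 3 members were lower at 10 weeks against 0 weeks, 1 at 15 weeks against 0 weeks and 3 at 10 weeks against 5 weeks, in place of 0, 0 and 1. Except for the spots left out and the threshold, the cause was not tested. The other 95 values of these counts stayed within 1.5 times. The median gene at 15 weeks against 10 weeks ranged from −0.40 with no background filter to 0.35 with spike-in scaling (log2). Of all 47 measured member differences, 8 changed sign in an alternative, all of them under 2-fold. No time point could be left out in turn, since each has 1 array, and no paired analysis was possible because no group has a second array. Signal over background limits Cidea at 0 weeks and the dim Hsd17b13 probe.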
